A study of Mus musculus with 15 samples.

Results

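The early response of dendritic cells (DC) to a microbial and a T cell signal was compared between cells grown with and without interleukin-4. For each gene the change from 0 to 6 h of stimulation in GM4 DC was set against the same change in GM DC, and the value reported is the first minus the second. The comparison used 11 of the 15 arrays of the series, chosen by the time in their titles. These were 3 GM arrays at 0 h, 2 GM arrays at 6 h, 3 GM4 arrays at 0 h and 3 GM4 arrays at 6 h. The 4 arrays at 20 h entered the estimate of the spread.

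All cells came from bone marrow of female NOD mice aged 6 to 8 weeks, a strain that develops autoimmune diabetes. GM DC were grown for 4 days in GM-CSF at 1 ng/ml and purified on a 16% metrizamide gradient. GM4 DC received GM-CSF and IL-4 at 1 ng/ml each and were purified at 14.5%, so culture with IL-4 and the density of the gradient cannot be told apart here. Both were then given LPS at 10 µg/ml together with IFN-γ at 50 ng/ml. The protocol of GM4 0 h replicate 1 gives neither doses nor gradient, and the source names of the 0 h GM4 arrays mention the stimulus although the titles say 0 h. The titles were followed, and the labels do not settle whether these cells had met the stimulus. The labels call the replicates biological and do not say how many mice each culture drew on. In the series title the GM4 cells are named therapeutic and the GM cells are not.

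LPS is sensed by Tlr4, which activates NF-kappaB and interferon regulatory factors and so switches on cytokines, chemokines and costimulatory molecules. IFN-γ signals through the kinases Jak1 and Jak2, and IL-4 through Jak kinases and Stat6. Both pathways induce Socs1, an inhibitor of Jak kinases. Stimulated DC stop dividing, move to lymph nodes and present antigen to T cells, and IL-4 is commonly added to GM-CSF cultures to obtain DC rather than macrophages.

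Genes that mark DC were expressed on all 11 arrays. The integrin gene Itgax read 424 to 1326, Flt3, a DC growth factor receptor, 117 to 218, and Cd74, the class II invariant chain, 4844 to 9868. T cell receptor genes were near the lowest signals, with Cd3e at 8.71 to 16.9. The neutrophil and monocyte genes S100a8 and S100a9 were also high on all 11 arrays, at 1804 to 4802 and 1110 to 3356. Of monocyte and macrophage genes, Cd14 read 825 to 12290, Lyz2 832 to 7816, Csf1r 209.5 to 2952 and Adgre1 36.7 to 303. The median signal was 40 to 48.4 per array, 29.7% to 35.3% of probe sets were below 16, and replicates of a group correlated at 0.966 or more. The β-actin control, whose 3′ to 5′ signal ratio rises as RNA degrades, had ratios of 1.43 to 1.88 in GM DC and 1.13 to 1.44 in GM4 DC at these times. The hybridisation controls had a mean log2 of 7.28 to 8.19 on GM arrays and 6.31 to 6.76 on GM4 arrays, with no overlap. The part of this offset in the differences was not tested. GM 6 h replicate 1 had the highest hybridisation controls, at 8.19 against 6.31 to 7.37 on the other 10 arrays.

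Changes are given on a log2(signal + 16) scale, on which those of weakly expressed genes come out too small. A value after ± is limma's standard error, and passed means a Benjamini-Hochberg adjusted p under 0.05 over all 12422 probe sets tested. The 6 h responses differed for 119 probe sets, 0.958% of those tested. The difference was above 0 for 55 (0.443%) and below 0 for 64 (0.515%), while centring each array on its median gave 42 above and 89 below. Of 8251 genes, each represented by 1 probe set, 102 passed (1.24%), 52 above 0 (0.63%) and 50 below (0.606%). The median difference over all genes was 0.05. At an unadjusted p under 0.05 there were 1528 probe sets, and of the genes 8.58% were then above 0 and 5.61% below.

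The count changed with the arrays used. It was 54 without GM 6 h replicate 1 and 298 without GM 6 h replicate 2. These are the only arrays of their group, so each of these fits takes its spread from the other groups and assumes that the lone array varies like them. Leaving out GM 0 h replicate 2 gave 76, and leaving out GM4 6 h replicates 2 and 3 in turn gave 69 and 77. Without GM 6 h replicate 1 and GM 0 h replicate 3, the array with the highest Gapdh 3′/5′ ratio, 82 probe sets passed, 51 of them among the 119.

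The 2 directions of difference held mostly opposite kinds of gene. Of the 50 genes with a difference below 0, 47 rose in GM DC, where 9.31% of all genes rose. In GM4 DC 28 of them rose, 4 fell and 18 did not pass, against a background of 6.76% rising and 12.3% falling. Their median change was 2.19 in GM DC and 0.59 in GM4 DC. Of the 52 genes with a difference above 0, 44 fell in GM DC, where 19.3% of all genes fell, and 19 fell, 9 rose and 24 did not pass in GM4 DC. Their median change was -1.50 in GM DC and -0.19 in GM4 DC. Because both responses enter the difference, these counts describe the genes and are no further test of it.

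**Figure D1:**
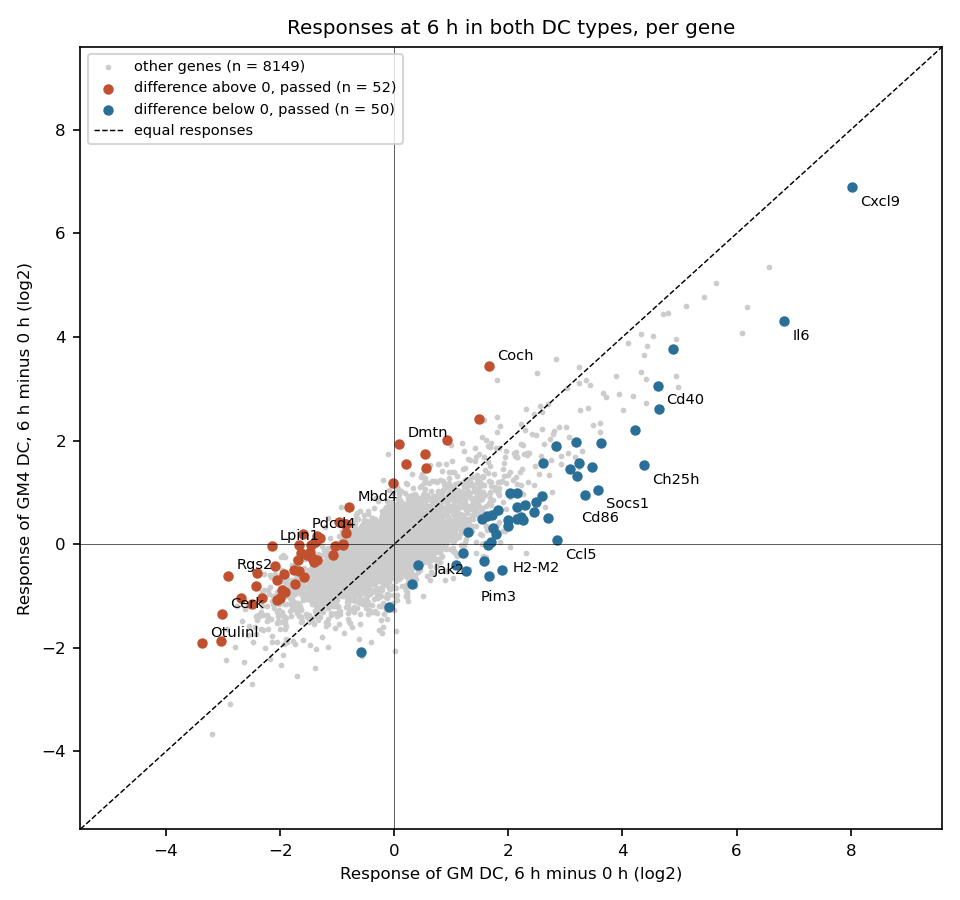
Change from 0 to 6 h per gene in GM DC (horizontal axis, log2) and GM4 DC (vertical axis, log2), with the 52 genes whose difference was above 0 and the 50 below 0 in colour, other genes in grey and a dashed line at equal responses. Most coloured points lie nearer to 0 on the vertical than on the horizontal axis, and Coch and Dmtn lie high on the vertical axis.

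The same difference can be read as a change in the gap between the DC types. Of the 50 genes below 0, 34 were already higher in GM4 DC at 0 h, where 8.05% of all genes were, and 25 of these 34 did not differ detectably at 6 h. At 6 h 24 of the 50 were lower in GM4 DC (background 5.26%) and 1 was higher. Of the 52 genes above 0, 30 were lower in GM4 DC at 0 h (background 8.16%), and 25 of these 30 showed no called gap at 6 h. At 6 h 26 of the 52 were higher in GM4 DC (background 7.73%). Since the difference is the gap at 6 h minus the gap at 0 h, genes chosen by it favour such gaps, and nothing is read from these counts against their backgrounds. A gap that did not pass at 6 h is not shown to be absent. In these bulk samples fewer cells expressing a gene and less RNA per cell cannot be told apart.

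**Figure D2:**
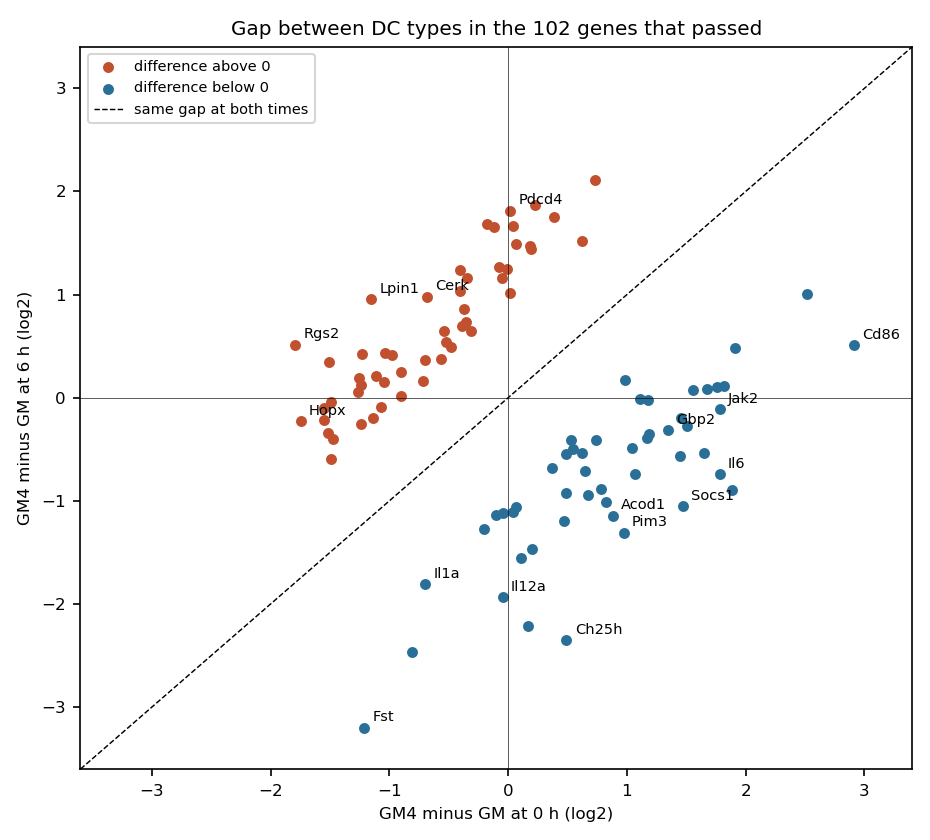
GM4 minus GM at 0 h (horizontal axis, log2) against GM4 minus GM at 6 h (vertical axis, log2) for the 102 genes that passed. Points below 0 in difference lie below the dashed line of equal gaps and those above 0 lie above it, which the arithmetic fixes, and Cd86, Jak2 and Gbp2 lie right of 0 and near the horizontal axis at 6 h.

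Promoter stretches of 8 genes are shown because their products are themselves parts of the pathways stimulated, or because the gene had one of the largest differences in its direction. Each run is 60 bases upstream of a transcription start in the RefSeq table for GRCm38.p6, written 5′ to 3′ on the gene's strand, with a motif match in capitals. The first 5 belong to genes with the largest differences in each direction that hold a match. A promoter with several matches is shown with 1 of them. The other 3 were chosen after their values were seen.
Rgs2 (chr1:144004269-144004328, minus strand, NF-kappaB motif): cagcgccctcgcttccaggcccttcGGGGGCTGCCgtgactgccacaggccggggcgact
Lpin1 (chr12:16610979-16611038, minus strand, STAT6 motif): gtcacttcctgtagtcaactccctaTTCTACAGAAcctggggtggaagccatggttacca
Ch25h (chr19:34475162-34475221, minus strand, NF-kappaB motif): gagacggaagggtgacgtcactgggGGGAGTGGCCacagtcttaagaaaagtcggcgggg
Il6 (chr5:30013045-30013104, plus strand, NF-kappaB motif): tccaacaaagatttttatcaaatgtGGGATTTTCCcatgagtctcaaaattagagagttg
Socs1 (chr16:10785585-10785644, minus strand, interferon-stimulated response element): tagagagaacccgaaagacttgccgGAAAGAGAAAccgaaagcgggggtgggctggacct
Nfkbia (chr12:55492648-55492707, minus strand, NF-kappaB motif): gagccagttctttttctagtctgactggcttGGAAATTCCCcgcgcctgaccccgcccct
Nfkb2 (chr19:46304673-46304732, plus strand, NF-kappaB motif): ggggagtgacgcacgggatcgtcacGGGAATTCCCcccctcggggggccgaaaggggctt
Gbp2 (chr3:142620579-142620638, plus strand, interferon-stimulated response element): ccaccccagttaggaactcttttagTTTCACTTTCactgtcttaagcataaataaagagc

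The motifs were searched on both strands, overlaps included, in the 300 bases from 250 before to 50 after each start. For NF-kappaB the letters were GGG, any 5 bases and CC, and for the interferon-stimulated response element GAAA, any 2 bases and GAAA. For STAT6 they were TTC, any 4 bases and GAA. For the gamma-activated site, of which no stretch is shown, they were TTCNNNGAA, with N any base. Of the 6576 measured genes with a window, 69.5%, 3.89%, 6.68% and 8.5% held them, in that order. Among 39 genes with a difference below 0 the shares were 87.2%, 10.3%, 7.69% and 15.4%. Among 48 genes above 0 they were 72.9%, 4.17%, 8.33% and 8.33%. Most windows of any gene hold the NF-kappaB letters, so a match describes the sequence and does not mark a bound site. No test was made of these shares.

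Of 16 measured genes of inflammatory cytokines and cytokines that direct T cells, 13 rose in GM DC and 13 in GM4 DC. Of all genes, 9.31% rose in GM DC and 6.76% in GM4 DC. In this list 3 genes passed for the difference, Il6, Il12a and Il1a, all below 0, where 0.606% of all genes were. The list median was -0.62 against 0.05 over all genes. Il6, an inflammatory cytokine that acts on T cells and the liver, read 38.9, 29.2 and 29.8 on the GM arrays at 0 h and 6159 and 4918 at 6 h. On the GM4 arrays it read 130.2, 195.5 and 133 at 0 h and 3232, 3210 and 3417 at 6 h. GM4 arrays lay above all GM arrays at 0 h and below both at 6 h. The response was 114-fold in GM DC and 19.8-fold in GM4 DC, a difference of -2.52 ± 0.39 (adjusted p = 0.0074), although the gap at 6 h did not pass (-0.74 ± 0.29). Il12a encodes the p35 subunit of interleukin-12, which drives T helper cells to make IFN-γ. Its signal was below 6 on all 6 arrays at 0 h. Stimulated GM DC read 192 and 136, and stimulated GM4 DC 44.2, 30.4 and 20.3. The DC types overlapped at 0 h and were apart at 6 h, with a difference of -1.88 ± 0.31 (adjusted p = 0.00994). With an offset of 1 the difference of Il12a was -2.10 and did not pass. Il1a, an alarm cytokine, went from 68.4, 104 and 66.3 to 2583 and 2967 in GM DC. In GM4 DC it went from 35.8, 41.9 and 48.9 to 796, 821 and 722. It was lower in GM4 DC at both times, and the gap widened by -1.11 ± 0.23 (adjusted p = 0.0342). Ebi3, a chain shared by cytokines of the interleukin-12 family, and Il1b, the 2 members with the highest signal that did not pass, had differences of 0.20 ± 0.24 and -1.23 ± 0.38. None of the 3 calls in this list remained without GM 6 h replicate 1, with Il6 at -2.36, Il12a at -1.65 and Il1a at -1.21. The call of Il1a also ended without any of 7 other arrays, at differences of -1.15 to -1.01.

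Chemokines attract leukocytes to the stimulated cells. Of 18 measured, Ccl5 and Cxcl9 passed, both below 0, with a list median of -0.28. Ccl5, which draws T cells and monocytes, read 1296, 735 and 2939 on the GM arrays at 0 h and 12590 and 8475 at 6 h. Its GM4 values were 5384, 4285 and 6273 at 0 h and 6226, 4684 and 5834 at 6 h. It therefore rose 7.24-fold in GM DC, while the GM4 arrays at the 2 times overlapped (0.08 on the log2 scale, not passed). The difference was -2.78 ± 0.54 (adjusted p = 0.0244). The highest signal of any probe set was 9520 to 17500 per GM array and 6150 to 8710 per GM4 array, and after quantile normalization the difference of Ccl5 was -2.12 and did not pass. The part of the signal range in this difference was not tested. Cxcl9, a chemokine induced by IFN-γ that attracts T cells through Cxcr3, was below 6 on all 0 h arrays. It reached 5345 and 4666 in GM DC and 2479, 2397 and 2307 in GM4 DC, with no overlap at 6 h. The difference was -1.12 ± 0.20 (adjusted p = 0.014), and with an offset of 1 it was -1.34 and did not pass. Ccl9 and Ccl22 had the highest signals of the chemokines that did not pass, at -0.29 ± 0.23 and -1.19 ± 0.39. Both calls ended without GM 6 h replicate 1, at -2.49 for Ccl5 and -1.03 for Cxcl9. The call of Ccl5 also ended without GM4 0 h replicates 1 or 3 or GM4 6 h replicates 2 or 3, at -2.82 to -2.65.

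Of 16 measured costimulatory genes, 14 were higher in GM4 DC at 0 h, where 8.05% of all genes were. The difference was below 0 for 15 and passed for 3, Cd86, Cd40 and Traf1. In GM DC 14 rose and in GM4 DC 9, where 9.31% and 6.76% of all genes rose. The list median of the gap was 1.65 at 0 h and 0.65 at 6 h. Cd86 encodes a ligand of CD28 on T cells. GM DC read 92, 106 and 76.9 at 0 h and 1211 and 944 at 6 h. GM4 DC read 646, 972 and 776 at 0 h and 2142, 1379 and 1217 at 6 h. GM4 DC at 0 h, whose source names mention the stimulus, thus stood at a level near that of GM DC at 6 h. GM4 arrays were highest at both times. The difference was -2.40 ± 0.36 (adjusted p = 0.00537). Another probe set of Cd86, with lower signal, gave -0.74 ± 0.41 and did not pass.

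Cd40, the receptor through which helper T cells activate DC, rose 24.6-fold in GM DC, from 72.8, 68.5 and 77.6 to 2345 and 2009. In GM4 DC it rose 8.35-fold, from 170.1, 180 and 202 to 1734, 1528 and 1693. The order of the DC types turned without overlap at either time, although the gap at 6 h did not pass, and the difference was -1.56 ± 0.17 (adjusted p = 0.000828). Traf1, an adaptor of receptors such as Cd40 that is also a target of NF-kappaB, read 1563 and 1609 in GM DC and 1582 to 1795 in GM4 DC at 6 h, so that the groups overlapped. At 0 h it read 176 to 365 and 732 to 1055. Its difference of -1.65 ± 0.30 (adjusted p = 0.0157) therefore lay in the levels at 0 h. Cd83 and Ccr7, the members with the highest signal that did not pass, had differences of -1.26 ± 0.39 and -1.36 ± 0.35. The call of Traf1 ended without GM 6 h replicate 1 (-1.68), and 2 members of the list then passed. Without both that array and GM 0 h replicate 3 the call of Cd86 ended, at -2.12, while 4 members of the list passed.

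Of 17 measured genes of NF-kappaB subunits, inhibitors and targets, Nfkb2, Nfkbia and Traf1 passed, all below 0, and the list median was -0.69. In GM DC 15 rose and in GM4 DC 8, where 9.31% and 6.76% of all genes rose. Nfkb2 encodes the p100 precursor of the p52 subunit. GM DC read 244, 228 and 326 at 0 h and 1235 and 973 at 6 h, and GM4 DC 743, 653 and 860 at 0 h and 986, 840 and 1046 at 6 h. It rose 3.99-fold in GM DC, did not pass in GM4 DC (adjusted p = 0.151), and overlapped between the DC types at 6 h. The difference was -1.65 ± 0.22 (adjusted p = 0.00286).

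Nfkbia encodes IκBα, the inhibitor that NF-kappaB induces against itself. Its values were 1187, 1100 and 1446 at 0 h and 7140 and 5179 at 6 h in GM DC, and 2464, 2294 and 2969 at 0 h and 4530, 3789 and 4775 at 6 h in GM4 DC. GM4 arrays were higher at 0 h and lower at 6 h without overlap, and the difference was -1.52 ± 0.24 (adjusted p = 0.00863). A further probe set of Nfkbia gave -0.83 ± 0.30 and did not pass. Rela, the main activating subunit, and Nfkbib, another inhibitor, did not pass, at -0.59 ± 0.18 and -1.12 ± 0.26 (adjusted p = 0.16 and 0.0539). The call of Nfkbia ended without GM 6 h replicate 1, at -1.29, and 1 of the 17 genes then passed.

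Interferon-stimulated genes were induced strongly in both DC types. Of 26 measured, 25 rose in GM DC and 26 in GM4 DC, by medians of 3.04 and 2.41. Of all genes, 9.31% rose in GM DC and 6.76% in GM4 DC. The difference passed for Gbp2, Usp18 and Irf1, all below 0, and the list median was -0.48. Gbp2, a guanylate-binding protein that attacks intracellular microbes, read 380, 311 and 331 at 0 h and 4210 and 4487 at 6 h in GM DC. In GM4 DC it read 860, 918 and 892 at 0 h and 3151, 3406 and 3989 at 6 h. Levels did not overlap at either time and changed order, and the difference was -1.66 ± 0.18 (adjusted p = 0.000828).

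Usp18, a protease that removes the Isg15 modifier and dampens interferon signalling, read 174 to 232 in GM DC and 469 to 536 in GM4 DC at 0 h. At 6 h the DC types overlapped, at 1800 and 2287 against 1932, 1937 and 2122, and the difference was -1.20 ± 0.20 (adjusted p = 0.0124). Irf1, a transcription factor induced by interferons, rose from between 346 and 365 to 2918 and 2420 in GM DC, and from between 478 and 579 to 2212, 1801 and 1997 in GM4 DC. Its difference of -0.94 ± 0.17 (adjusted p = 0.0181) was the smallest of the named genes. Isg15 and Irf8 did not pass, at -1.003 ± 0.30 and -1.08 ± 0.31. Irf1 lost its call without GM 6 h replicate 1 (-0.81) and also without the second replicate of GM DC at 0 h (-0.92) or of GM4 DC at 6 h (-0.87).

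Socs1 read 282, 275 and 174 on the GM arrays at 0 h and 3564 and 2539 at 6 h. Its GM4 values were 696, 727 and 646 at 0 h and 1894, 1239 and 1291 at 6 h. The GM4 arrays were all above the GM arrays at 0 h and all below them at 6 h. Socs1 rose 11.9-fold in GM DC and 2.08-fold in GM4 DC, and both gaps passed, at 1.47 ± 0.20 and -1.05 ± 0.22. The difference was -2.52 ± 0.29 (adjusted p = 0.00141) and kept its call under each alternative run.

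Jak2, the kinase that serves the IFN-γ receptor and is inhibited by Socs1, read 327, 247 and 371 at 0 h and 949 and 953 at 6 h in GM DC. GM4 DC gave 1249, 1189 and 914 at 0 h and 1026, 906 and 727 at 6 h. The GM4 arrays at both times overlapped the GM arrays at 6 h, and only GM DC at 0 h lay apart. The response was 1.57 in GM DC, -0.33 and not passed in GM4 DC, and the difference -1.90 ± 0.26 (adjusted p = 0.00286). A second probe set of Jak2, with low signal, gave -0.26 ± 0.54, and the mean of both did not pass (-1.08).

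Pim3, a kinase that promotes survival, read 119, 115 and 167 at 0 h and 640 and 319 at 6 h in GM DC, and 256, 294 and 273 at 0 h and 194, 175 and 153 at 6 h in GM4 DC. Every GM4 array was lower at 6 h than at 0 h, although that change did not pass (-0.62, adjusted p = 0.0599), and the difference was -2.28 ± 0.31 (adjusted p = 0.00286). Bcl6, a transcriptional repressor, read 103 to 174 in GM DC and 175 to 248 in GM4 DC at 0 h. At 6 h it read 549 and 441 against 304, 231 and 227, without overlap, a difference of -1.41 ± 0.29 (adjusted p = 0.0326). Its call ended without GM 6 h replicate 1 (-1.26) and without any of 5 other arrays (-1.48 to -1.23).

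Ch25h, which makes 25-hydroxycholesterol, had the largest difference below 0. It read 28.5, 24.6 and 51.1 at 0 h and 723 and 1404 at 6 h in GM DC, and 29.1, 77.7 and 63.4 at 0 h and 179, 231 and 152 at 6 h in GM4 DC. The DC types overlapped at 0 h, and at 6 h the lowest GM array lay above the highest GM4 array. The response was 20.7-fold against 2.89-fold and the difference -2.84 ± 0.46 (adjusted p = 0.0099).

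Acod1, which makes itaconate, rose 25-fold in GM DC to 9178 and 8008 and 6.14-fold in GM4 DC to 3729, 3834 and 4060. Its 0 h levels were 251, 342 and 410 against 433, 998 and 542, and the difference was -2.02 ± 0.36 (adjusted p = 0.0151). After quantile normalization it was -1.59 and did not pass. The 6 h GM signals of Acod1 lay within or above the highest signals of GM4 arrays, 6150 to 8710. The part of the signal range in its difference was not tested. A second probe set of Acod1 gave -2.34 ± 0.53 and did not pass (adjusted p = 0.0538). Slc7a2, a transporter of arginine, overlapped at 0 h (89.7 to 148 and 98.9 to 134) and read 1200 and 1107 against 538, 374 and 279 at 6 h. Txnrd1, thioredoxin reductase, likewise overlapped at 0 h (354 to 374 and 353 to 407) and read 1615 and 1077 against 664, 600 and 547 at 6 h. Their differences were -1.66 ± 0.32 and -1.16 ± 0.20 (adjusted p = 0.0244 and 0.0137). These 3 calls ended without GM 6 h replicate 1, at -1.93 for Acod1, -1.60 for Slc7a2 and -0.87 for Txnrd1. That of Slc7a2 also ended without GM4 0 h replicate 2 (-1.58) or 3 (-1.62) or GM4 6 h replicate 2 (-1.64). The list that joins nitric oxide and oxidative burst genes with host defence had 23 measured members, of which Ch25h, Slc7a2 and Txnrd1 passed, and a median of -0.37. Cyba and Mpeg1, the members with the highest signal that did not pass, had differences of -0.36 ± 0.21 and 0.75 ± 0.36.

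Fst, follistatin, a secreted protein that binds activins, was lower in GM4 DC at both times. It read 32.9, 41.7 and 58.4 at 0 h and 526 and 788 at 6 h in GM DC, and 8.61, 9.7 and 10.6 at 0 h and 68.1, 44.4 and 57.3 at 6 h in GM4 DC. Stimulated GM4 DC stood at about the level of unstimulated GM DC, and the difference was -1.98 ± 0.35 (adjusted p = 0.014). Since the GM4 arrays at 0 h lay below the offset of 16, the size depends on it: with an offset of 1 the difference was -1.45 and did not pass.

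Procr, the receptor of protein C, went from 141, 160 and 192 to 4332 and 2554 in GM DC and from 404, 463 and 558 to 2544, 2055 and 2161 in GM4 DC, a difference of -2.01 ± 0.28 (adjusted p = 0.00306). H2-M2, a nonclassical class I gene, read 489 to 818 in GM DC and 488 to 1295 in GM4 DC at 0 h. It rose to 2660 and 2327 in GM DC and read 793, 465 and 387 in GM4 DC at 6 h, a difference of -2.38 ± 0.47 (adjusted p = 0.0265). Clic4, an intracellular chloride channel protein, rose from between 914 and 1609 to 6282 and 6261 in GM DC and read 2358 to 3426 and then 3458 to 4176 in GM4 DC. All 3 probe sets of Clic4 passed, at -1.80 ± 0.31, -1.67 ± 0.23 and -1.39 ± 0.27. Rgcc, a regulator of the cell cycle, and Car2, carbonic anhydrase 2, differed by -1.83 ± 0.38 and -1.78 ± 0.28. Car2 rose in GM DC, from 153, 254 and 306 to 574 and 562, and read 616 to 723 and then 404 to 532 in GM4 DC. Of these genes, H2-M2, Clic4 and Rgcc lost their calls without GM 6 h replicate 1, at -2.29, -1.80 and -1.81. The call of H2-M2 also ended without GM 0 h replicate 2 (-2.17) and without replicate 2 (-2.30) or 3 (-2.17) of GM4 DC at 6 h, and that of Rgcc without any of 7 other arrays (-1.88 to -1.60). Car2 was also the only erythroid marker of 10 measured to pass. The summed signal of the other 9 was 681 to 891 at 0 h and 646 to 772 at 6 h in GM DC, and 564 to 787 and 541 to 731 in GM4 DC. These ranges overlapped between all 4 groups.

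**Figure D3:**
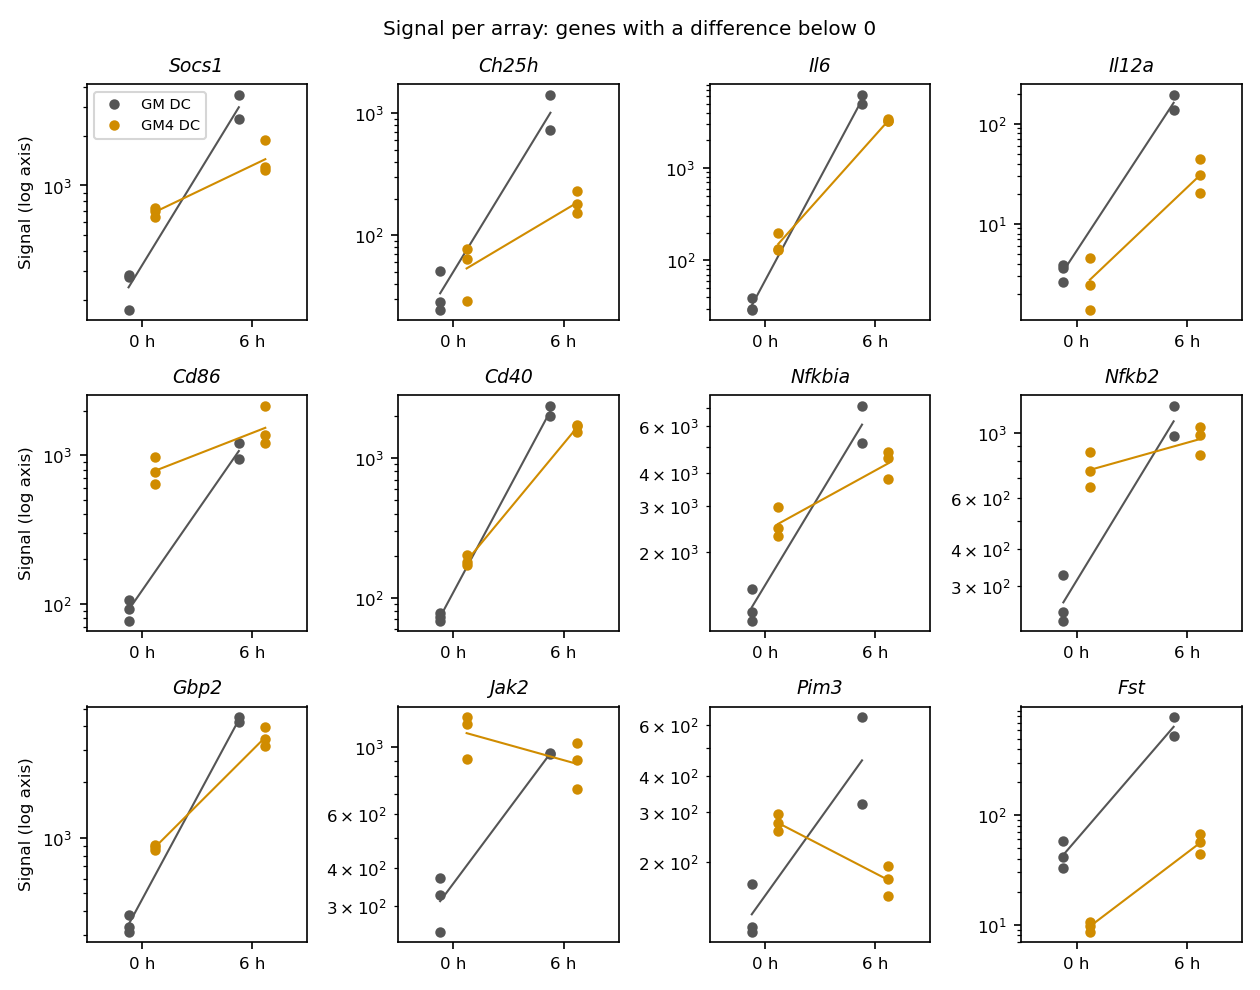
Signal per array (vertical log axis) at 0 and 6 h for 12 genes with a difference below 0, GM DC in grey and GM4 DC in ochre, with lines joining the group means of log2(signal + 16). For Socs1, Cd40, Nfkbia and Gbp2 the lines cross, for Cd86 and Jak2 they start apart and come close, and for Ch25h and Il12a they start together and part.

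Most genes with a difference above 0 fell in GM DC, 44 of 52, and fewer fell in GM4 DC, 19 of 52. Rgs2, which limits signalling by G proteins, had the largest value. It read 594, 514 and 673 on the GM arrays at 0 h and 46.4 and 88.2 at 6 h. On the GM4 arrays it read 147, 158 and 174 at 0 h and 93.3, 111 and 93.9 at 6 h. The GM arrays were highest at 0 h and lowest at 6 h, with no overlap between the DC types at either time. Rgs2 fell 7.53-fold in GM DC and 1.52-fold in GM4 DC, and the difference was 2.30 ± 0.27 (adjusted p = 0.00141).

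Rasa3, which switches off Ras and Rap proteins, read 492, 606 and 702 at 0 h and 77.9 and 124 at 6 h in GM DC, and 184, 236 and 180.3 at 0 h and 148, 117 and 126 at 6 h in GM4 DC. The DC types overlapped at 6 h, so the difference of 1.85 ± 0.26 (adjusted p = 0.00306) lay mostly in the 0 h levels. Stk10, a kinase of lymphoid and myeloid cells, went from between 607 and 693 to 194 and 201 in GM DC and from between 278 and 349 to between 245 and 319 in GM4 DC, a difference of 1.46 ± 0.18 (adjusted p = 0.00204). Hopx, a small homeodomain protein, went from between 707 and 783 to 249.9 and 313 in GM DC and from between 173 and 274 to between 225 and 246 in GM4 DC, a difference of 1.52 ± 0.24 (adjusted p = 0.00774). In these 3 genes a lower level was present in GM4 DC at 0 h. The call of Hopx ended without GM 6 h replicate 1 (1.37). Otulinl, of unassigned function here, fell in both DC types to overlapping levels of 35.8 to 59.6, from 552 to 722 in GM DC and 200.3 to 218 in GM4 DC, a difference of 1.46 ± 0.27 (adjusted p = 0.0185). Its other 2 probe sets gave 0.10 ± 0.30 and 1.23 ± 0.27 and did not pass.

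Another group started level and parted. Pdcd4, a tumour suppressor that restrains translation, read 428, 376 and 415 in GM DC and 460.4, 429 and 350.1 in GM4 DC at 0 h. At 6 h it read 122 and 124 in GM DC and 495, 475 and 446 in GM4 DC. The groups overlapped at 0 h and were apart at 6 h. Pdcd4 fell 3.04-fold in GM DC, and its change in GM4 DC did not pass (0.19, adjusted p = 0.333). The difference was 1.80 ± 0.18 (adjusted p = 0.000528), the lowest adjusted p of the named genes.

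Wipf1, a partner of the actin regulator WASP, had the same form. It read 507, 738 and 620 at 0 h and 143 and 234 at 6 h in GM DC, and 717, 836 and 629 at 0 h and 652, 715 and 780.4 at 6 h in GM4 DC, a difference of 1.65 ± 0.29 (adjusted p = 0.0149), which did not pass without GM 6 h replicate 1 (1.32). Grk6, a kinase that desensitises G protein-coupled receptors including chemokine receptors, read 192 to 256 and 203 to 254 at 0 h. It fell in both DC types, to 35.6 and 19.8 in GM DC and 147, 123 and 95.9 in GM4 DC, a difference of 1.62 ± 0.28 (adjusted p = 0.0135).

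Lpin1, a phosphatidate phosphatase of triglyceride synthesis, read 134, 117 and 109 at 0 h and 16.1 and 13.1 at 6 h in GM DC, and 57.7, 45.1 and 34.1 at 0 h and 67, 40.4 and 28.7 at 6 h in GM4 DC. GM4 arrays were lower at 0 h and higher at 6 h, with no overlap, and both gaps passed (-1.16 ± 0.24 and 0.96 ± 0.26). The GM signals of Lpin1 at 6 h lay near the offset of 16, and over the alternative fits its difference ran from 1.21 to 2.89. The difference was 2.11 ± 0.35 (adjusted p = 0.0121) and did not pass without both GM 6 h replicate 1 and GM 0 h replicate 3 (2.24).

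Mid1ip1, which activates fatty acid synthesis, fell from between 371 and 465 to 84.8 and 91.7 in GM DC and read 154 to 199.8 and then 118 to 137 in GM4 DC. Its difference was 1.66 ± 0.21 (adjusted p = 0.00204), but another probe set with low signal gave 0.04 ± 0.42 and the mean of both, 0.85, did not pass. Idh1, an isocitrate dehydrogenase that supplies NADPH, fell from between 731 and 857 to 112 and 105 in GM DC and from between 509.9 and 667 to between 186 and 386 in GM4 DC, a difference of 1.64 ± 0.29 (adjusted p = 0.0151). Cerk, ceramide kinase, fell from between 155 and 216 to 5.45 and 11.2 in GM DC and from between 87.5 and 125 to between 24.8 and 48.1 in GM4 DC, a difference of 1.66 ± 0.32 (adjusted p = 0.0244). The calls of Idh1 (1.68) and Cerk (1.49) ended without GM 6 h replicate 1. The call of Cerk also ended without the second 0 h replicate of GM DC (1.69) or of GM4 DC (1.54).

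A few genes above 0 rose more in GM4 DC. Coch, which encodes the secreted protein cochlin, was below 6 on all 0 h arrays and reached 36.8 and 45.6 in GM DC and 213, 163 and 124 in GM4 DC. It rose in both DC types, with a difference of 1.77 ± 0.29 (adjusted p = 0.0099). Dmtn, an actin-bundling protein, read between 26.6 and 31 on all GM arrays at both times. In GM4 DC it rose from 18.7, 16 and 32.8 to 119, 147 and 123, a difference of 1.86 ± 0.34 (adjusted p = 0.0181). Both calls ended without GM 6 h replicate 1 (1.66 and 1.81), and that of Dmtn also ended without GM4 6 h replicate 2 (1.77). With an offset of 1 the difference of Coch was 2.65 and did not pass.

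Mbd4, a DNA glycosylase that repairs mismatches at methylated sites, moved in opposite directions. It fell in GM DC from 147, 163 and 157 to 72.3 and 95.4 and rose in GM4 DC from 129, 117 and 113 to 241, 194 and 188. The difference was 1.51 ± 0.21 (adjusted p = 0.00286). GM4 arrays lay below all GM arrays at 0 h, a gap that did not pass (-0.35 ± 0.14), and above both at 6 h.

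**Figure D4:**
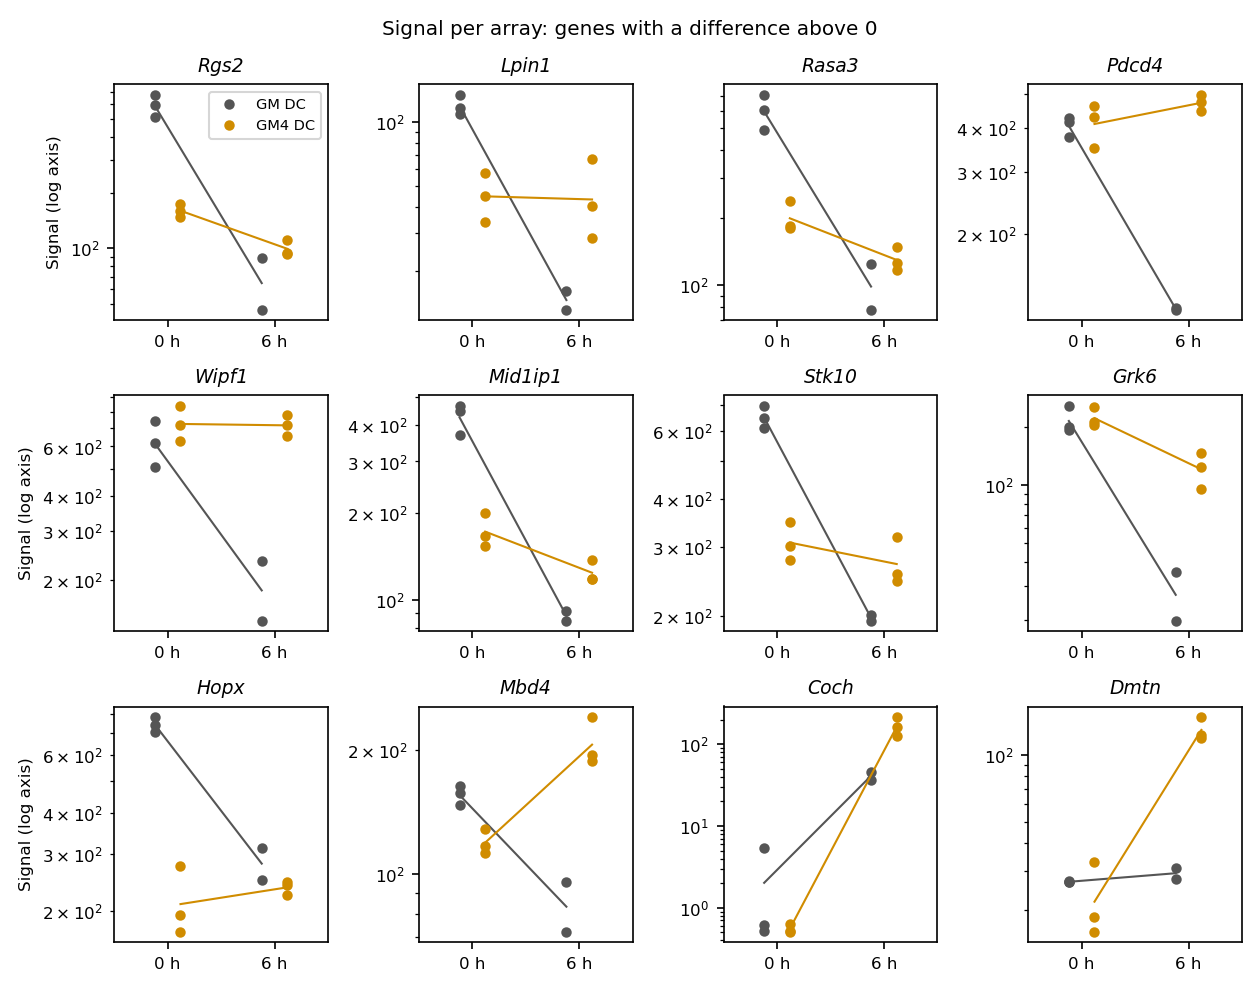
Signal per array (vertical log axis) at 0 and 6 h for 12 genes with a difference above 0, GM DC in grey and GM4 DC in ochre, with lines joining the group means of log2(signal + 16). For Rgs2, Lpin1 and Rasa3 the GM line falls steeply across a flatter GM4 line, for Pdcd4 and Wipf1 only the GM line falls, and for Coch and Dmtn the GM4 line rises further.

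Among 448 measured genes of 18 pathway and 9 marker lists, none passed above 0, where 0.63% of all genes did. Cell cycle genes had the highest median difference, 0.73 over 34 measured genes, against 0.05 over all genes. Of these, 28 fell and 2 rose in GM DC and 11 fell and 1 rose in GM4 DC, with median changes of -1.45 and -0.69. Of all genes, 19.3% fell and 9.31% rose in GM DC, and 12.3% fell and 6.76% rose in GM4 DC. limma passed no member of the list for the difference. At an unadjusted p under 0.05 there were 16 members above 0 and 2 below, where 8.58% and 5.61% of all genes were. Pcna and Cdkn1a, the members with the highest signal, differed by 0.33 ± 0.34 and -0.67 ± 0.26. The median gap of the list was -0.55 at 0 h and 0.09 at 6 h. Without GM 6 h replicate 2 the list median was 0.99 and 3 members passed above 0, and without GM 6 h replicate 1 it was 0.45 and none did.

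Of 16 measured cholesterol and fatty acid synthesis genes, 12 fell and 1 rose in GM DC. In GM4 DC 7 fell and 9 did not pass. Of all genes, 19.3% fell in GM DC and 12.3% in GM4 DC. The median difference of the list was 0.24, and limma passed none of its members. At an unadjusted p under 0.05, 5 were above 0, where 8.58% of all genes were. Acly and Scd2, with the highest signals, differed by 0.20 ± 0.27 and -0.46 ± 0.35. In the fit without GM 6 h replicate 1, 2 members passed above 0.

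Genes of the IL-4 and STAT6 response had a median difference of -0.04 over 28 measured genes. Socs1, Ch25h and Bcl6 passed, all below 0. In this list 15 genes were higher and 5 lower in GM4 DC at 0 h, where 8.05% and 8.16% of all genes were. At 6 h 11 were higher and 6 lower, where 7.73% and 5.26% of all genes were. Il1rn, the antagonist of interleukin-1, had a difference of 0.12 ± 0.22. In the list of regulatory and feedback mediators, Socs1, Nfkbia, Fst and Acod1 passed of 19, all below 0, with a median of -0.65. In the fit without GM 6 h replicate 1, 3 genes became 2 for this list, 4 became 2 for the regulatory list and 3 became 1 for the nitric oxide list.

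Other lists held no gene that passed in limma. Class I presentation (13 genes) had a median difference of -0.44 and 6 genes below 0 at an unadjusted p under 0.05, with B2m at -0.79 ± 0.23. Chemokine receptors and migration (14) had -0.51 and 3 such genes, immediate early genes (20) -0.37 with 5 below and 1 above 0, and glycolysis (15) -0.46 with 2 below. The lists of class II presentation (20), Toll-like receptor signalling (9), endocytic receptors (23) and oxidative phosphorylation (48) had medians of -0.16, -0.18, 0.00 and 0.12. At an unadjusted p under 0.05 they held 1, 0, 3 and 3 genes above 0 and 1, 1, 4 and 0 below. Of all genes, 8.58% were above 0 and 5.61% below at that threshold, beside which the counts of each list here stand.

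Among marker lists, Cd86 was the only DC marker of 14 to pass, and the median was -0.47. Of 16 monocyte and macrophage markers, 8 were lower in GM4 DC at 0 h and 10 at 6 h, where 8.16% and 5.26% of all genes were. None of these markers was higher at either time. Their summed signal was 14656 to 17309 at 0 h and 18836 to 26386 at 6 h on GM arrays, against 5134 to 6025 and 5389 to 7280 on GM4 arrays. Lyz2, lysozyme of macrophages, and Cd14, the coreceptor for LPS, differed in response by -0.996 ± 0.26 and 0.26 ± 0.25 and did not pass. No monocyte marker passed for the difference in limma. At an unadjusted p under 0.05, 2 were below 0, where 5.61% of all genes were. The part of a different share of monocyte-like cells in the differences above was not tested. The other lists, for neutrophils (18), B cells (13), T and NK cells (14), plasmacytoid DC (6), mast cells (16) and stroma (16), had median differences of -0.41 to 0.11. They held no gene that passed and 1 to 2 genes each at an unadjusted p under 0.05. Of all genes, 8.58% were above 0 and 5.61% below at that threshold.

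**Figure D5:**
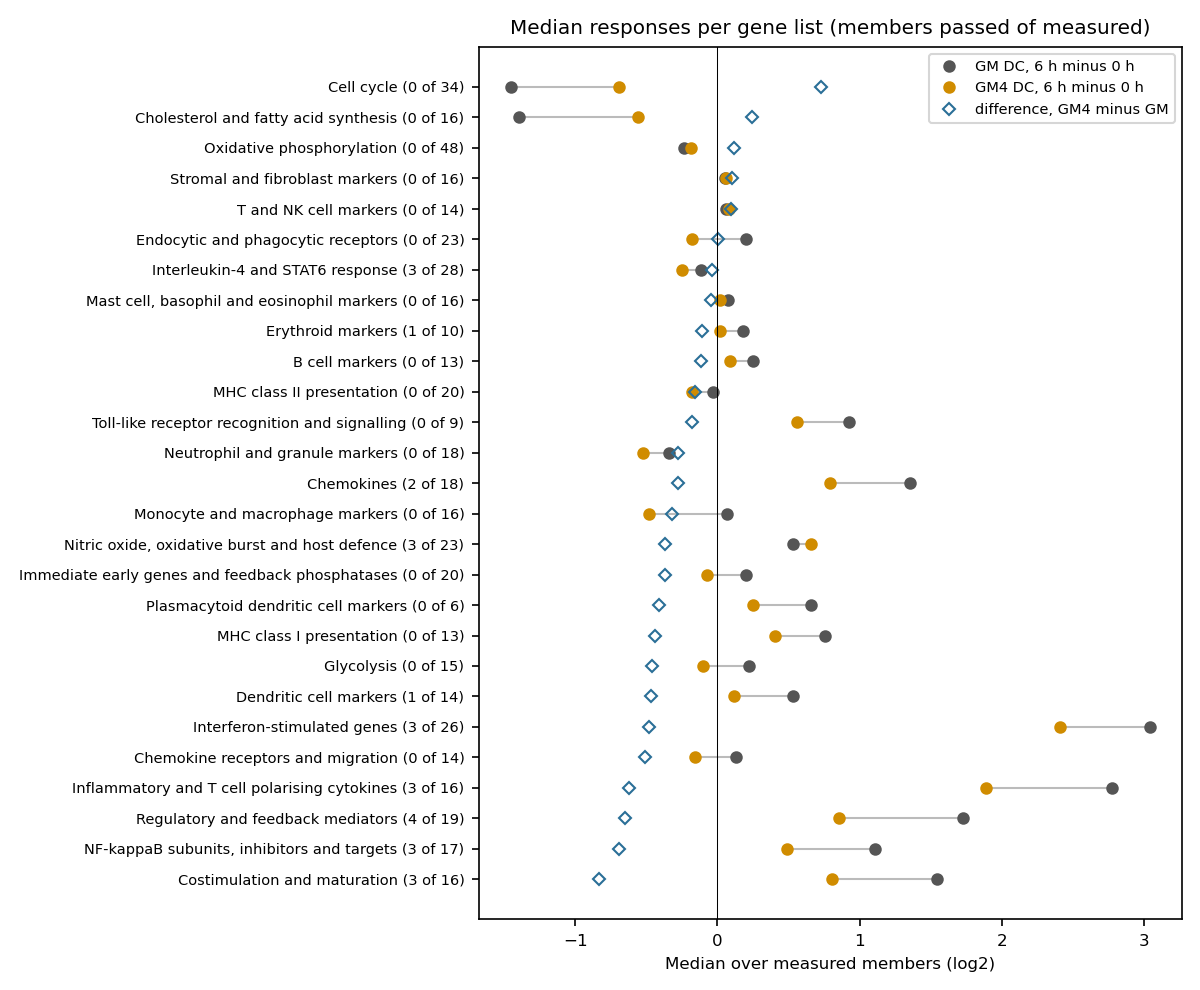
Median change from 0 to 6 h over the measured members of each of 27 lists (horizontal axis, log2) in GM DC (grey) and GM4 DC (ochre), with the median difference as an open diamond, sorted by that difference; the counts in brackets are members that passed of those measured. Costimulation has the lowest median difference, -0.83, and cell cycle the highest, 0.73.

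The same contrast at 20 h shares its 0 h arrays with the one at 6 h and has 2 arrays per DC type at 20 h. Side by side with the 6 h values above, the 20 h difference was -2.13 ± 0.31 for Socs1, -2.39 ± 0.38 for Cd86, -1.82 ± 0.19 for Gbp2 and 2.19 ± 0.28 for Rgs2, all of which passed. These genes, like the next, are examples chosen after their values were seen. The 20 h difference was -0.70 ± 0.41 for Il6, -0.11 ± 0.33 for Il12a, 0.05 ± 0.36 for Fst and 1.32 ± 0.37 for Lpin1, and these did not pass. Of all genes, 1.49% passed at 20 h. Whether the difference changed between 6 and 20 h was not tested.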

How the data were processed

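Biotin-labelled cRNA from 15 samples was measured on single Affymetrix arrays, per the labels. Deposited was a linear intensity per probe set, which the authors made with MAS5 per the submitters' processing notes (version not given in the sources used here). Each array had a 2% trimmed mean of 150, so arrays had been scaled singly. Such scaling hides a change of all genes together, and low signals are noisy. The number of arrays limits the precision.

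The arrays hold 12488 probe sets. After removal of 66 controls, 12422 were tested without a filter. Their log2(signal + 16) values went into limma 3.58.1 (R 4.3.3). The model had 6 group means on 15 arrays, 9 residual degrees of freedom and an intensity trend. GEO's platform table names 1 gene for 10833 probe sets, more for 396 and no gene for 1193. Where a gene had several probe sets, the one with the highest mean stood for it. The script was tested on simulated data.

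Named genes are the 15 largest differences each way that passed, without unnamed transcripts, and list members that passed. Up to 2 members per list that did not pass, those with the highest signal, are given as values. The comparison, the 27 lists and these rules were chosen with earlier results of these data known. Promoter windows come from RefSeq (GRCm38.p6), and 8 of the 42 named genes had none. Refits used offsets of 1 and 64, a filter at percentile 40, median centring or quantile normalization, no trend, array weights, the 11 arrays alone, a replicate block, an RNA quality covariate, the mean over a gene's probe sets, and leaving out arrays.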

Additional observations from a re-analysis of the deposited data

Results flagged for a closer look

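The early response differed between the DC types for 119 probe sets by the test of the difference itself. Among these, 2 genes had responses that passed in opposite directions: Mbd4, with a difference of 1.51, and Csnk1d, a casein kinase, which rose by 0.41 in GM DC and changed by -0.40 in GM4 DC, a difference of -0.81. A further 12 genes passed for both gaps between the DC types with opposite signs at 0 and 6 h. Of those higher in GM4 DC at 0 h and lower at 6 h, Socs1 had a difference of -2.52, Pim3 -2.28, Acod1 -2.02 and Rgcc -1.83. Dusp16, a MAP kinase phosphatase, had -1.67, Ms4a4c -1.62, the transcription factor Ets2 -1.36 and Samhd1, a dNTP hydrolase that restricts viruses, -1.04. Of those lower in GM4 DC at 0 h and higher at 6 h, Lpin1 had a difference of 2.11, Cerk 1.66, Gtse1 1.19 and Tex261 0.98. Csnk1d, Dusp16, Ms4a4c, Ets2, Samhd1, Gtse1 and Tex261 lie outside the naming rule and were chosen after their values were seen. No group had 4 or more arrays, so no outlier screen within groups was run. GM 6 h replicate 1, with the highest hybridisation controls, and GM 0 h replicate 3, with the highest Gapdh 3′/5′ ratio, were left out together in a refit.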

How the results depend on the processing

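Against 119 probe sets (55 above and 64 below 0) and 102 genes, the filter on low signal gave 213 (94 and 119) and 182, array weights 230 (100 and 130) and 193, and the 11 arrays alone 70 (35 and 35) and 60. Without GM 0 h replicate 3 and GM 6 h replicate 1, 35 probe sets passed above 0 and 66 genes passed in all. Leaving out 1 array at a time gave 54 to 298 probe sets, 28 to 119 above and 26 to 179 below 0, and 44 to 221 genes. The other alternatives, apart from the replicate block, stayed within 1.5 times of each of these counts.

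With the replicate number as a block, 206 probe sets passed (84 and 122) and 175 genes, 116 of the probe sets among the 119. Same-numbered arrays correlated at 0.03 to 0.33 in their deviations from group means over 15 pairs, 9 of them over 0.1, against -0.28 to 0.17 for other pairs. For 9 of 11 arrays the closest array had its own number. Deviations cancel out within a group, so a positive correlation with an array of a group goes with lower ones in its rest. The contrast of same-numbered with other pairs is therefore partly fixed by arithmetic. The labels do not say what a number shares, so the numbers were not taken as pairs.

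With the RNA quality covariate all 119 probe sets passed among 178. None of the 42 named genes changed sign under any alternative. Without GM 6 h replicate 1, 21 of the 42 lost their call, without that array and GM 0 h replicate 3 19, with the 11 arrays alone 9, and with an offset of 1 5 (Coch, Fst, Il12a, Cxcl9 and Il1a). Quantile normalization ended the calls of Ccl5 (-2.12), Acod1 (-1.59) and Il1a (-1.04). The median difference of all probe sets was 0.03 and ran from -0.04 to 0.08 over the alternatives.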
